A study of Nannospalax ehrenbergi and Mus musculus with 14 samples.

Results

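The microRNAs miR-143 and miR-145 were followed in the injected side (IS) and the uninjected side (UIS) of blind mole rats (*Spalax*) and mice that had received 3-methylcholanthrene (3MCA), a chemical carcinogen. Every row of the small RNA tables named miR-143, miR-145, miR-145a or miR-145b, on either arm, was taken. These were 5 of the 1326 microRNA names, namely miR-143-3p, miR-143-5p, miR-145a-5p, miR-145a-3p and miR-145b, and all 5 passed the filter on low values in both species. In *Spalax* miR-145b passed it only through the UIS libraries. The 14 libraries fell into 6 groups. Granulomas gave the IS of 2 *Spalax* (animals Sp600 and Sp976, operated on 14 and 16 months after the injection). The study's pathology defined them as growths of spindle cells, reflecting fibrosis where an inflammation had not fully resolved. Fibrosarcomas gave the IS of another 2 *Spalax* (animals Sp2230 and Sp2240, at 30 and 18 months). Fibrosarcomas also gave the IS of 3 mice (animals M512, M1019 and M1023, at 11, 14 and 12 weeks). The UIS of the same 4 *Spalax* gave 2 libraries with each diagnosis, and the mice gave 3. The *Spalax* were field-caught and received 1 mg 3MCA in 500 µl, and the mice were C57BL/6 and received 200 µg in 200 µl, each as a single subcutaneous injection. All animals, the UIS included, had thus been treated with 3MCA, and no untreated animal was sequenced here. One UIS library of the mice carries an animal number that no label holds and was left unpaired, so 6 animals gave a pair of sides.

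MicroRNAs repress messenger RNAs. miR-143 and miR-145 are cut from a shared primary transcript and are known as abundant microRNAs of smooth muscle cells, in the vessel wall above all, and of other mesenchymal cells. There they favour the contractile over the proliferating state, with the transcription factors Klf4, Klf5 and Elk1 among the known targets. Each hairpin yields a 5p and a 3p arm, of which miR-143-3p and miR-145a-5p are the major products. In the mouse annotation (GENCODE M21, GRCm38), Mir143 lies at chr18:61649196-61649258 and Mir145a at chr18:61647825-61647894, both on the minus strand with 1301 bases between them. No annotated gene overlaps either hairpin. The long noncoding RNA gene Carmn, on the same strand, ends 366 bases from Mir143, and Bvht, on the opposite strand, ends 352 bases from Mir145a. Mir145b is a separate locus at chr18:69022199-69022273, also on the minus strand and in no other annotated gene. The Mir145a and Mir145b hairpins share a run of 17 bases, so reads of one may be counted under the other and the split between both is uncertain. Reads of *Spalax* were counted under the mouse names.

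Recovered microRNA reads ranged from 2034574 to 13982842 per library, so that 3 reads, the limit that a count of 0 allows, made up 2.15e-05% to 0.000147% of a library. Such limits and the intervals on reads given below cover counting error only. The labels name the tissue as muscle tissue. Skeletal muscle microRNAs, 13 names in all, held 27.7% to 37.3% of the reads at the UIS and 0.00959% to 3.95% at the IS. Among mice the IS share was 3.95% for animal M512, 0.0101% for M1019 and 2.57% for M1023, and in *Spalax* it was at most 0.165%. In the IS libraries 5 to 8 of the 13 names had any read in *Spalax* and 10 to 11 in mice. miR-133a-3p and miR-1a-3p, the defining members, had reads in every library. Because tissues are mixtures, fewer cells of a type and less of a microRNA per cell cannot be told apart in any result that follows.

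miR-143-3p, the major arm of miR-143, was among the most abundant microRNAs, ranking between 6 and 22 in each library, and its normalized count was lower at the IS in all 6 paired animals. In *Spalax* with granulomas, it was 108372 at the IS of animal Sp600 and 59103 at the IS of animal Sp976, against 266501 and 269535 at the UIS. In *Spalax* with fibrosarcomas, it was 96103 and 50462 at the IS of animals Sp2230 and Sp2240, against 332205 and 314651 at the UIS. The sides did not overlap with either diagnosis, and the IS libraries of 1 diagnosis differed from each other by more than the UIS libraries did. In mice, miR-143-3p was 129321, 90253 and 112859 at the IS of animals M512, M1019 and M1023, against 638849, 735447 and 560527 at the UIS of animal M512, animal M1023 and the unnumbered library. The mouse sides were likewise apart.

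On the deposited scale, limma gave a 3.35-fold lower level of miR-143-3p at the IS of granulomas (log2 fold change −1.74, SE 0.40, adjusted p = 0.0109). The level was 4.64-fold lower at the IS of *Spalax* fibrosarcomas (−2.21, SE 0.40, adjusted p = 0.00508 with limma). In mouse fibrosarcomas it was 5.85-fold lower (−2.55, SE 0.26, adjusted p = 0.000779 with limma). The granuloma call was lost without the UIS library of animal Sp600 (adjusted p = 0.0608 with limma) or of animal Sp976 (0.0640), while the value stayed at −1.75 and −1.74.

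miR-145a-5p, the major arm of miR-145, fell alongside. Its normalized count in *Spalax* granulomas was 3920 and 1354 at the IS of animals Sp600 and Sp976, against 7910 and 6835 at the UIS. In *Spalax* fibrosarcomas it was 2200 and 1200 at the IS of animals Sp2230 and Sp2240, against 6096 and 6545 at the UIS. Neither pair of sides overlapped, and animal Sp600 kept the highest level of any *Spalax* IS library. In mice it was 2561, 1418 and 2521 at the IS of animals M512, M1019 and M1023, against 14880, 13268 and 12539 at the UIS of animal M512, animal M1023 and the unnumbered library. The log2 fold changes were −1.67 in granulomas (SE 0.56, adjusted p = 0.0404 with limma), −1.96 in *Spalax* fibrosarcomas (SE 0.56, adjusted p = 0.0291) and −2.69 in mice (SE 0.34, adjusted p = 0.00151). These correspond to 3.19-fold, 3.89-fold and 6.46-fold lower levels.

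The calls of miR-145a-5p in *Spalax* were less firm than those of miR-143-3p. In granulomas, edgeR with TMM gave an adjusted p of 0.0608, and the call was also lost when any of 5 libraries was left out, namely the IS of animal Sp976 or the UIS of animals Sp600, Sp976, Sp2230 or Sp2240. Without the IS of animal Sp976 the log2 fold change shrank to −0.91 (adjusted p = 0.193 with limma). In *Spalax* fibrosarcomas, the call was lost without the IS of animal Sp2240 (−1.52, adjusted p = 0.111 with limma) or without any of the 4 UIS libraries, with an adjusted p of at most 0.132.

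In all, 3 of the 5 members were lower and passed the test in granulomas, 3 of 5 in *Spalax* fibrosarcomas and 5 of 5 in mice, and none was called higher. The members called in *Spalax* include miR-145b, which met the filter only through its UIS libraries, where it is high. Among all microRNAs tested, 22.8%, 22.1% and 25.6% were called lower in the same 3 comparisons. The median log2 fold change of the members was −1.67, −1.96 and −2.00, beside 0.13, −0.23 and 0.21 over all 447 microRNAs tested in *Spalax* (both diagnoses) and 547 in mice. With the animal as a block, 2 of 5 members were called in mice, the calls lost being those of miR-143-5p (adjusted p = 0.0622 with limma), miR-145a-3p (0.0986) and miR-145b (0.370). That fit held only the libraries of mice M512 and M1023. The block and the smaller number of libraries can therefore not be told apart in these losses.

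**Figure D1:**
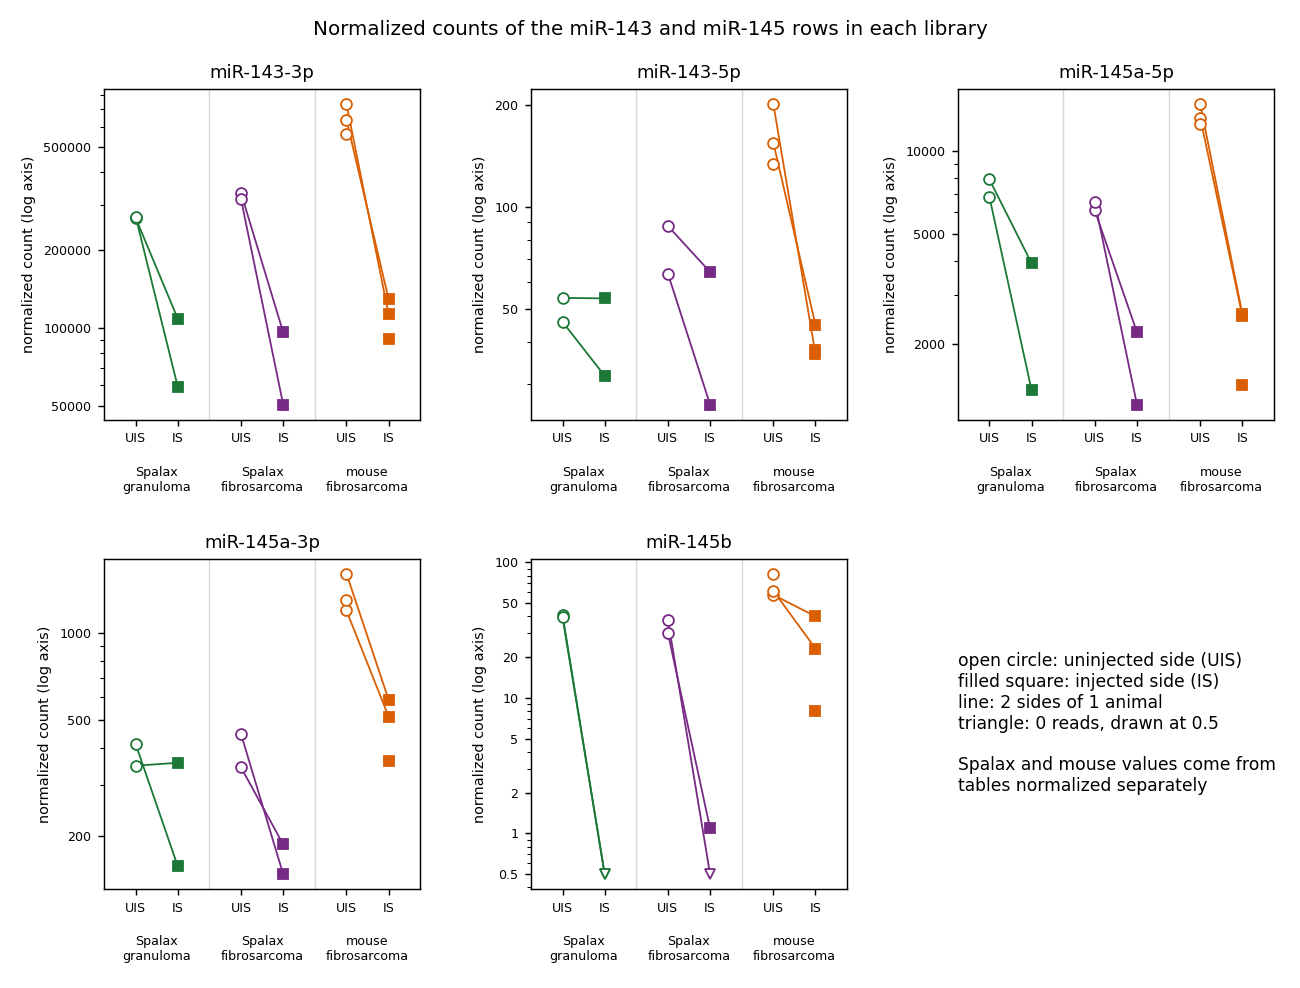
Normalized counts (log axis) of the 5 members in each library, with open circles for the UIS, filled squares for the IS and lines joining both sides of 1 animal; triangles mark libraries with 0 reads. miR-143-3p and miR-145a-5p lie lower at the IS in all 6 animals joined by a line, and miR-145b has 0 reads in 3 of the 4 IS libraries of *Spalax*.

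The size of these differences depended on what the reads were scaled to. As a share of all microRNA reads, miR-143-3p made up 2.43% and 1.32% at the IS of granulomas (animals Sp600 and Sp976) and 1.63% and 1.71% at the UIS. In *Spalax* fibrosarcomas it made up 2.21% and 1.14% at the IS (animals Sp2230 and Sp2240) and 2.34% and 2.24% at the UIS. In mice it made up 3.37%, 2.60% and 2.76% at the IS (animals M512, M1019 and M1023) and 2.38%, 3.98% and 3.61% at the UIS (animal M512, animal M1023 and the unnumbered library). The shares of the sides overlapped in granulomas and in mice, and animals Sp600 and M512 had the higher share at the IS. Across the 6 pairs the share of miR-143-3p changed by −0.15 on the log2 scale (SD 0.60, lower in 4 of 6 animals, exact two-sided sign-flip test, adjusted p = 0.781). The share of miR-145a-5p, 0.0272% to 0.0879% at the IS against 0.0430% to 0.0807% at the UIS, changed by −0.03 (SD 0.60, lower in 3 of 6 animals, adjusted p = 0.969, same exact test). Neither share differed between sides beyond the spread between animals. Names that hold the same reads as another name in every library add 1.65% to 17.7% to the total of a library. With these counted once, a choice made after the values were seen, the changes were −0.13 and −0.013 with the same adjusted p.

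Under scaling to total reads, the log2 fold change of miR-143-3p was 0.10 in granulomas, −0.53 in *Spalax* fibrosarcomas and −0.17 in mice, and that of miR-145a-5p was 0.17, −0.27 and −0.31. None of these 6 values passed the test, with adjusted p from 0.329 to 0.833 with limma. That scaling moved the median of all microRNAs to 1.71, 1.14 and 2.24, so that most calls were then higher at the IS. Of the calls, 48 were lower and 247 higher in granulomas, 40 and 195 in *Spalax* fibrosarcomas and 31 and 376 in mice, against 102 and 114, 99 and 68, and 140 and 176 on the deposited scale. Relative to the median microRNA, miR-143-3p was lower under both scalings, by −1.87, −1.98 and −2.76 on the deposited scale and by −1.61, −1.66 and −2.40 on total reads. Counted from the most strongly lowered microRNA, its place was 103, 87 and 62 on the deposited scale and 105, 79 and 66 on total reads. Another scaling shifts all microRNAs of a comparison by about the same amount, so that this place and this distance are alike by construction.

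Scaling to the reads outside the skeletal muscle microRNAs gave values between those of the other scalings, −0.55, −1.17 and −0.62 for miR-143-3p (adjusted p = 0.273, 0.0499 and 0.137 with limma), so that the call in *Spalax* fibrosarcomas was kept and the other two were lost. The share of reads on skeletal muscle microRNAs, given above, moved with the side in every animal. Their part in the change of miR-143 and miR-145 was not tested. With size factors computed within a species without them, 3, 3 and 5 members were called, as on the deposited scale. Those size factors left the median of all microRNAs at 0.14, −0.23 and 0.19, beside 0.13, −0.23 and 0.21 on the deposited scale. The calls were thus alike nearly by construction and say nothing of that part.

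**Figure D2:**
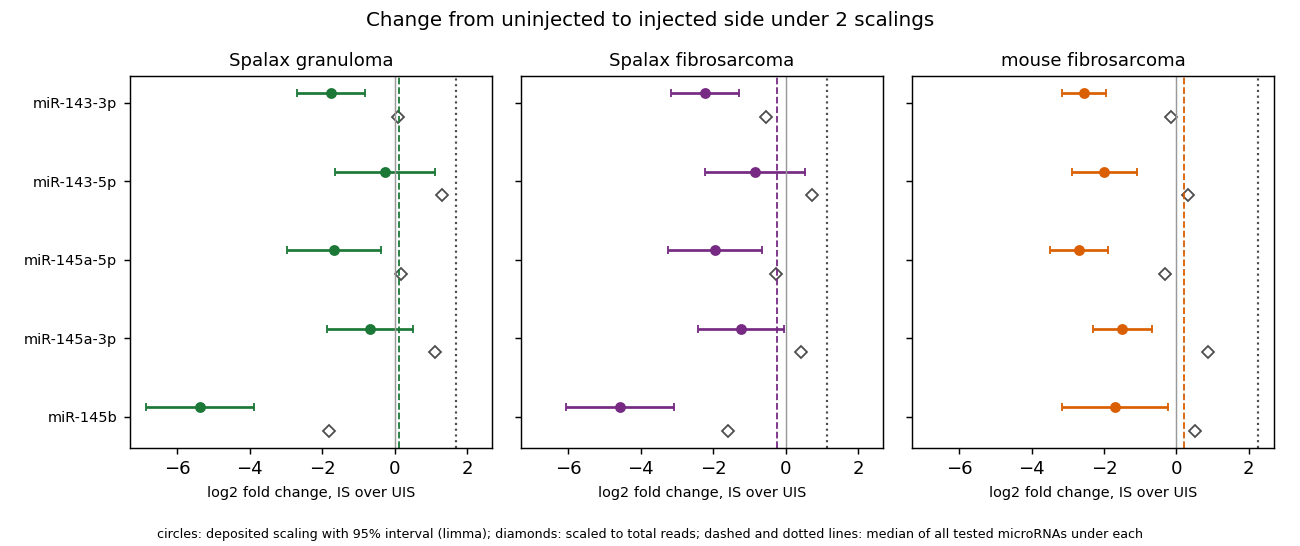
Log2 fold changes (IS over UIS) of the 5 members with the deposited scaling (circles, 95% interval from limma) and with total reads (diamonds), and the median of all tested microRNAs as a dashed and a dotted line. On total reads miR-143-3p and miR-145a-5p sit between −0.53 and 0.17, while the median of all microRNAs sits at 1.71, 1.14 and 2.24.

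miR-143-3p and miR-145a-5p, the major products of neighbouring hairpins, were counted in similar proportions in each library, a measure that no scaling touches. Between 27.6 and 63.7 reads of miR-143-3p were found for each read of miR-145a-5p. The proportion was 27.6 and 43.6 at the IS of granulomas, 33.7 and 39.4 at their UIS, 43.7 and 42.1 at the IS of *Spalax* fibrosarcomas and 54.5 and 48.1 at their UIS. In mice it was 50.5, 63.7 and 44.8 at the IS against 42.9, 55.4 and 44.7 at the UIS. From UIS to IS it changed by −0.12 on the log2 scale (SD 0.25, n = 6 animals, lower in 4 of 6, exact two-sided sign-flip test, p = 0.281, adjusted p = 0.281 over 3 ratios). The UIS of *Spalax* and of mice differed by −0.13 (exact two-sided permutation test, 4 against 3 libraries, p = 0.514, adjusted p = 0.514). Across libraries, the log2 levels of both microRNAs had a Pearson correlation of 0.96 in the 8 *Spalax* libraries and 0.99 in the 6 mouse libraries. These coefficients are descriptions, since both levels of a library share its size factor and the libraries fall into 2 sides.

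The minor arms were also set against the major arms of their own hairpins. miR-145a-3p is cut from the same hairpin as miR-145a-5p. At the IS of granulomas there were 9.11 and 11.6 reads of miR-145a-3p for every 100 of miR-145a-5p, against 4.41 and 6.06 at the UIS. In *Spalax* fibrosarcomas there were 8.49 and 12.3 at the IS against 5.65 and 6.84 at the UIS. In mice there were 23.0, 25.5 and 20.4 at the IS against 10.8, 9.00 and 10.3 at the UIS. The sides did not overlap in any of these groups, and the minor arm gained on the major arm in 6 of 6 animals. The log2 proportion of miR-145a-5p to miR-145a-3p changed by −0.95 at the IS (SD 0.21, n = 6, exact two-sided sign-flip test, p = 0.0312, the smallest that 6 pairs can give, adjusted p = 0.0938 over 3 ratios). It therefore did not pass the adjusted threshold, which 6 pairs could have passed only with all 3 ratios, or 2 of them, at that smallest p. Unpaired within *Spalax*, 4 IS against 4 UIS libraries gave a difference of −0.85 (exact permutation test, p = 0.0286, adjusted p = 0.0429). These are both sides of the same 4 animals, and that test ignores the pairing, so it does not replace the paired result. Within mice the unpaired difference was −1.19 (3 against 3, exact permutation test, p = 0.1, the smallest possible, adjusted p = 0.3).

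The same proportion was compared between the species. At the UIS, the 9.00 to 10.8 reads per 100 in mice lay above the 4.41 to 6.84 in *Spalax*, without overlap. The log2 proportion of miR-145a-5p to miR-145a-3p was 0.82 higher in *Spalax* (exact two-sided permutation test, 4 against 3 libraries, p = 0.0571, the smallest this design allows, adjusted p = 0.171 over 3 ratios). The design could thus not reach the threshold. Dose, time after injection and origin of the animals differed with the species and cannot be told apart from it.

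miR-143-5p, the minor arm of miR-143, was scarce, with 12 to 118 reads per library. For every 100000 reads of miR-143-3p, there were 49.5 and 53.6 reads of miR-143-5p at the IS of granulomas against 20.2 and 17.0 at the UIS. In *Spalax* fibrosarcomas there were 66.9 and 51.6 at the IS against 26.4 and 20.2 at the UIS. In mice there were 28.4, 41.8 and 39.7 at the IS against 31.6, 21.1 and 24.0 at the UIS. The proportion was higher at the IS in all 4 *Spalax* and in mouse M1023, and was slightly lower at the IS in mouse M512. The log2 proportion of miR-143-3p to miR-143-5p changed by −1.07 at the IS (SD 0.64, n = 6, lower in 5 of 6, exact two-sided sign-flip test, p = 0.0625, adjusted p = 0.0938). Unpaired within *Spalax* the difference was −1.41 (exact permutation test, 4 against 4, p = 0.0286, adjusted p = 0.0429), and within mice −0.52 (3 against 3, p = 0.2, where 0.1 is the smallest possible, adjusted p = 0.3). The *Spalax* libraries are again both sides of the same 4 animals, whose pairing the unpaired test ignores.

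On the normalized scale the minor arms accordingly moved less than the major arms. miR-143-5p had log2 fold changes of −0.26 in granulomas (adjusted p = 0.748 with limma) and −0.85 in *Spalax* fibrosarcomas (adjusted p = 0.296), and fell by 2.00 in mice (SE 0.38, adjusted p = 0.00552). miR-145a-3p had −0.68 (adjusted p = 0.301 with limma) and −1.24 (adjusted p = 0.0932) in *Spalax*, and fell by 1.5 in mice (SE 0.34, adjusted p = 0.0105). On total reads the sign of both arms turned in all 3 comparisons, to 1.32, 0.73 and 0.32 for miR-143-5p and to 1.13, 0.43 and 0.87 for miR-145a-3p, none of them past the threshold. As shares of all reads, both minor arms were higher at the IS in 6 of 6 animals, by 0.92 on the log2 scale for each (SD 0.64 and 0.66, exact sign-flip test, p = 0.0312, adjusted p = 0.0781 over the 5 members).

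miR-145b, which is named for the second miR-145 locus, was in *Spalax* the rarest member in every library and the one with the widest log2 fold change at the IS with either diagnosis. There it had 0 reads at the IS of both granulomas (animals Sp600 and Sp976), 2 reads at the IS of fibrosarcoma Sp2230 and 0 at that of Sp2240. The UIS of animals Sp600, Sp976, Sp2230 and Sp2240 held 29, 31, 25 and 35 reads. In mice it had 36, 22 and 32 reads at the IS of animals M512, M1019 and M1023 and 30, 45 and 61 at the UIS of animal M512, animal M1023 and the unnumbered library. The sides were fully apart in *Spalax*. In mice the reads, which come from libraries of unequal depth, overlapped, as did the shares of all reads, while the normalized counts did not.

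In granulomas the normalized miR-145b was at least 21.3-fold lower at the IS, taking 3 reads over both IS libraries as the limit. In *Spalax* fibrosarcomas the ratio of UIS to IS was 39.2, with an exact 95% counting interval of 10.4 to 331. limma called both changes lower (adjusted p = 0.000703 and 0.00178), and the calls held on total reads and with no filter. In *Spalax* miR-145b met the filter on low values only through its UIS libraries, where it is high. These calls therefore add no support beyond the counts themselves. In mice the normalized count was 40.0, 7.98 and 23.1 at the IS against 57.7, 61.8 and 82.8 at the UIS, a 3.26-fold lower level (log2 fold change −1.71, SE 0.62, adjusted p = 0.0493 with limma). The mouse call was lost with edgeR and TMM (adjusted p = 0.0785) and with the animal as a block (mice M512 and M1023 only). It was also lost without any 1 library other than the IS of animal M512 (adjusted p from 0.0892 to 0.133 with limma). Without the IS of animal M1019 the log2 fold change was −1.10, and on total reads its sign turned (0.51, adjusted p = 0.404 with limma).

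Set against miR-145a-5p in the same library, miR-145b went opposite ways in the 4 *Spalax* and the 2 paired mice. For every 100 reads of miR-145a-5p, the UIS of *Spalax* held 0.519, 0.576, 0.494 and 0.576 reads of miR-145b and the UIS of mice 0.387, 0.466 and 0.660. The UIS levels of the species overlapped. At the IS the proportion was 0 in 3 *Spalax* and 0.0495 in animal Sp2230, and in mice it was 1.56, 0.563 and 0.917. Among reads of miR-145a-5p and miR-145b together, the exact 95% intervals for miR-145b were 0 to 0.117% and 0 to 0.344% at the IS of animals Sp600 and Sp976, below the 0.346% and 0.390% that bounded their UIS from beneath. For animal Sp2240, with 553 reads of miR-145a-5p at the IS, the interval reached 0.665% and overlapped that of its UIS. The proportion was lower at the IS in 4 of 4 *Spalax* and higher in both paired mice, while the IS of unpaired mouse M1019 lay within the range of the mouse UIS. Over the 6 pairs the log2 proportion, with 0.5 reads added, changed by −1.90 (SD 2.77, exact two-sided sign-flip test, p = 0.156, adjusted p = 0.234 over the 3 ratios chosen after the values were seen). Unpaired, within *Spalax* the log2 difference was −3.60 (exact two-sided permutation test, 4 against 4 libraries of the same 4 animals, p = 0.0286, adjusted p = 0.0429), and within mice 0.93 (3 against 3, p = 0.2, adjusted p = 0.3). The difference between the species was not tested. In the paired animals it cannot be told apart from the skeletal muscle reads left at the IS of mice M512 and M1023.

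**Figure D3:**
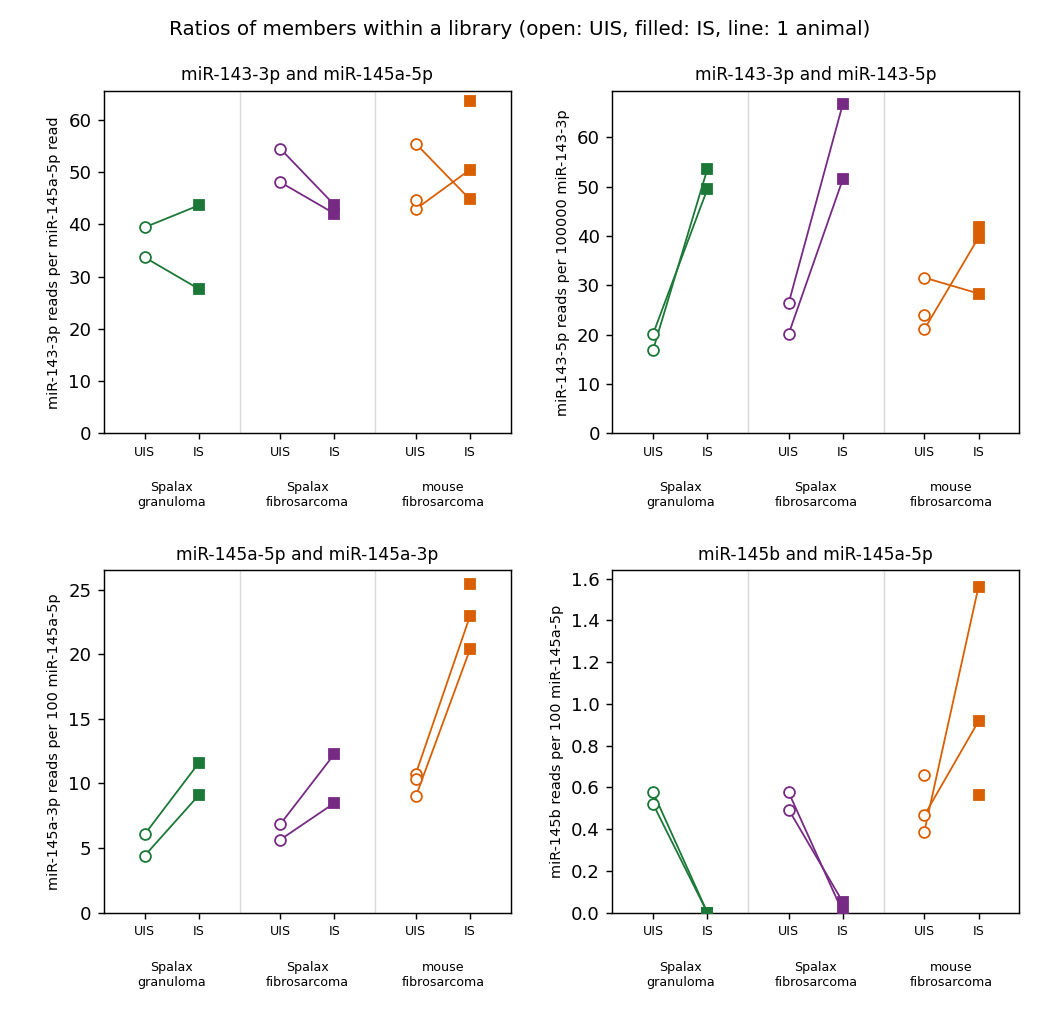
Proportions of members within a library, with open circles for the UIS, filled squares for the IS and lines joining both sides of 1 animal. The number of miR-145a-3p reads per 100 of miR-145a-5p is higher at the IS in 6 of 6 animals, and miR-145b per 100 of miR-145a-5p is near 0 at the IS of *Spalax* and up to 1.56 at the IS of mice.

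Whether the members separated granulomas from fibrosarcomas was asked within *Spalax*. In order of mean level, miR-143-3p was highest at the UIS of fibrosarcoma-bearing animals (323428 ± 12413, SD, n = 2), then at the UIS of granuloma-bearing animals (268018 ± 2146), at the IS of granulomas (83737 ± 34838) and at the IS of fibrosarcomas (73283 ± 32273). Only the step from UIS to IS in this order was called. Between the granuloma and fibrosarcoma IS, miR-143-3p differed by 0.20 on the log2 scale (95% interval −0.74 to 1.14, adjusted p = 0.770 with limma) and miR-145a-5p by 0.50 (−0.80 to 1.81, adjusted p = 0.588). None of the 5 members was called there, where 18.8% of all microRNAs were.

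The change at the IS itself was also compared between the diagnoses. For miR-143-3p the granuloma change less the fibrosarcoma change was 0.47 (95% interval −0.86 to 1.80, adjusted p = 0.732 with limma), and for miR-145a-5p it was 0.28 (−1.56 to 2.13, adjusted p = 0.858). The intervals of both spanned more than a doubling in either direction for miR-145a-5p and in 1 direction for miR-143-3p. No member was called, beside 3.80% of all microRNAs. Between the UIS of granuloma-bearing and of fibrosarcoma-bearing *Spalax* no microRNA was called (0% of 447 with limma, 5 at an unadjusted p under 0.05, and 0 with DESeq2 and with edgeR), and the members differed by −0.58 to 0.25.

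Of the mouse libraries, 5 were also deposited in the table of *Spalax*, with size factors that rest on libraries of both species, and there the levels stood side by side on 1 scale. On it miR-143-3p was 115169, 75894 and 93858 at the IS of mice M512, M1019 and M1023 and 518568 and 554838 at the UIS of mice M512 and M1023. The mouse UIS values lay above the 266501 to 332205 of the *Spalax* UIS, and the IS values overlapped the 50462 to 108372 of the *Spalax* IS. miR-145a-5p was 12078 and 10009 at the UIS of mice M512 and M1023 on that scale, above the 6096 to 7910 of *Spalax*. Red cell microRNAs (miR-451a, miR-144 and miR-486) took 7.26% to 18.1% of the reads at the mouse UIS and 1.47% to 2.68% at the *Spalax* UIS. Here miR-486a-5p and miR-486b-5p, which hold the same reads in every library, were counted once in the list but not in the library totals. miR-486 is also known from muscle, and miR-486a-5p alone reached 2448168 reads in a mouse library and 251002 in a *Spalax* library. The shares are therefore no measure of blood alone. The part of the red cell list in the levels of miR-143-3p and miR-145a-5p was not tested.

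Other microRNAs known from vascular smooth muscle and vessels were set beside the members. Of 11 such microRNAs, 5 were higher and 4 lower at the IS in granulomas, 4 and 4 in *Spalax* fibrosarcomas and 4 and 6 in mice, with a median log2 fold change of −0.61, −0.15 and −0.99. Among all microRNAs tested, 25.5%, 15.2% and 32.2% were called higher and 22.8%, 22.1% and 25.6% lower, so that several of these counts lie near the shares over all microRNAs. Those linked to the proliferating state moved against miR-143 and miR-145 in part. miR-21a-5p rose by 3.63 in granulomas, 3.63 in *Spalax* fibrosarcomas and 3.04 in mice, and miR-221-3p rose by 3.75, 4.43 and 1.72 and miR-222-3p by 4.36, 4.81 and 2.90. miR-24-3p fell by 1.83, 1.75 and 0.99, and miR-26a-5p fell by 3.11, 2.24 and 3.02. All values just given passed the test with limma (adjusted p at most 0.0493, for miR-24-3p in mice). miR-31-5p and miR-146a-5p, also linked to the proliferating state, are part of the counts above, and their values are not given here. Both were called higher in granulomas, but not both in *Spalax* fibrosarcomas or in mice. miR-204-5p and miR-490-3p, linked to the contractile state, were lower in mice, with log2 fold changes of −5.60 and −2.30, and were not called in *Spalax*, with values of −0.96 to −0.15. miR-1a-3p and miR-133a-3p, which smooth muscle shares with skeletal muscle, fell by 8.07 to 13.2 in the 3 comparisons, alongside the share of skeletal muscle microRNAs.

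miR-143-3p was set against miR-21a-5p in the same library. At the UIS there were 4.16 to 11.1 reads of miR-143-3p for each read of miR-21a-5p in *Spalax* and 9.67 to 17.5 in mice. At the IS there were 0.0864 to 0.288 in *Spalax* and 0.242 to 0.395 in mice. The log2 proportion changed by −5.66 (SD 0.60, n = 6, lower in 6 of 6 animals, exact two-sided sign-flip test, p = 0.0312, adjusted p = 0.0938 over the 3 ratios chosen after the values were seen). miR-21a-5p thus outnumbered miR-143-3p in every IS library and in none of the UIS libraries.

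Against miR-126a-3p, a microRNA of endothelial cells, the proportion of miR-143-3p did not differ between sides beyond the spread between animals. Both arms of miR-126a were lower at the IS in all 3 comparisons, with a median log2 fold change of −2.30, −2.36 and −2.31. The number of miR-143-3p reads for each read of miR-126a-3p ranged from 5.38 to 38.4 at the IS and from 8.30 to 26.1 at the UIS. From UIS to IS the log2 proportion changed by 0.26 (SD 0.56, n = 6, higher in 4 of 6 animals, exact two-sided sign-flip test, p = 0.281, adjusted p = 0.281). The IS libraries were more scattered than the UIS libraries in this proportion, with mouse M512 highest and *Spalax* Sp2240 lowest. Both arms of miR-126a took 0.343% to 1.64% of the reads at the IS and 0.323% to 1.10% at the UIS.

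**Figure D4:**
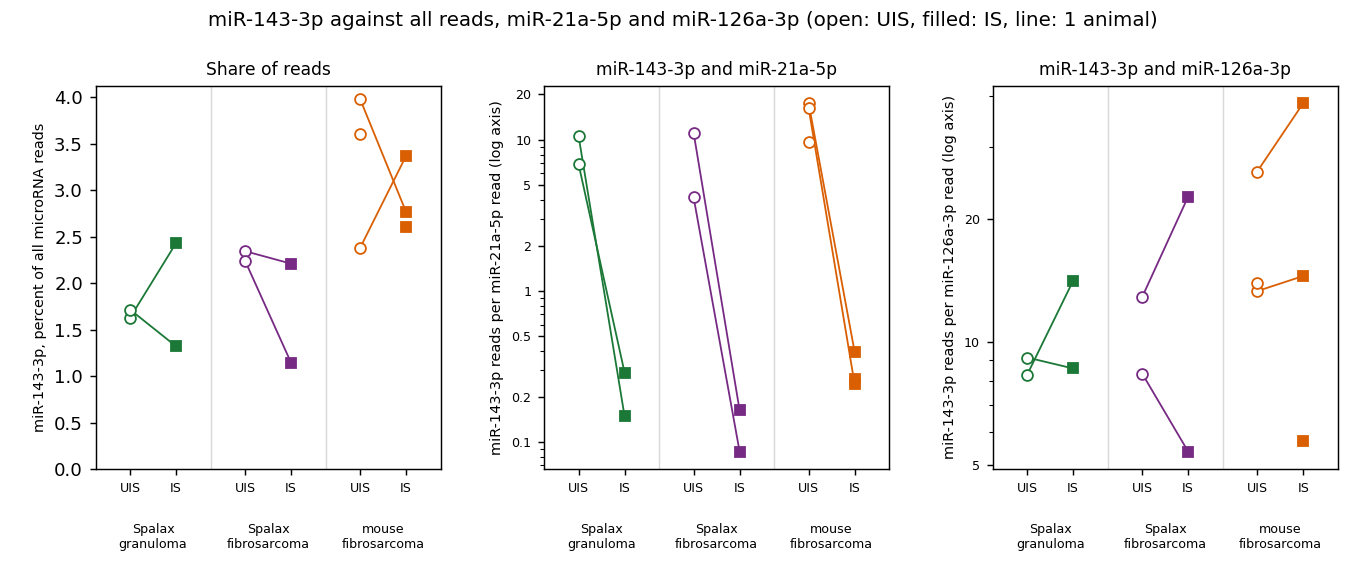
miR-143-3p as a percent of all microRNA reads (left), per read of miR-21a-5p (middle, log axis) and per read of miR-126a-3p (right, log axis), with open circles for the UIS, filled squares for the IS and lines joining both sides of 1 animal. The share of reads lies between 1.14% and 3.98%, and the proportion to miR-21a-5p is above 4 in every UIS library and below 0.4 in every IS library.

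Markers of other mesenchymal and blood cells were counted beside the same shares of all microRNAs, 25.5%, 15.2% and 32.2% called higher and 22.8%, 22.1% and 25.6% lower. Fibroblast microRNAs (the miR-199, miR-214 and miR-152 arms, 8 names), which mesenchymal cells share in part with smooth muscle, were called higher at the IS for 7 of 8 names in granulomas, 0 of 8 in *Spalax* fibrosarcomas and 5 of 8 in mice, and none was called lower. Of these names, miR-199a-3p and miR-199b-3p hold the same reads in every library and are 1 measurement. With both counted once in the list, its summed share was 11.7% to 11.8% of the reads at the IS of granulomas, 3.23% to 6.61% at that of *Spalax* fibrosarcomas and 4.32% to 8.92% at that of mice, against 0.236% to 1.10% at the UIS. Repeated names stayed in the library totals, so that these shares are understated. The 5 members together took 1.17% to 3.45% at the IS and 1.68% to 4.06% at the UIS. Leukocyte microRNAs were called higher for 4 of 6 tested names in granulomas, 4 of 6 in *Spalax* fibrosarcomas and 2 of 6 in mice, and 1 was called lower in granulomas. The 2 of 6 called higher in mice lie near the share over all microRNAs. Red cell microRNAs were called lower for 4 of 7 names in each comparison, and all 4 were arms of miR-486, which is also known from muscle and of which 2 names hold the same reads. miR-451a, the defining red cell microRNA, had log2 fold changes of −1.07, −1.29 and −2.54 and was not called (adjusted p = 0.339, 0.287 and 0.0573 with limma), and neither arm of miR-144 was called. The part of these cells in the levels of miR-143 and miR-145 was not tested.

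The microRNAs most alike in pattern to miR-143-3p were sought among 398 that were tested in both species, by the lower of the Pearson correlations of log2 levels over the 8 *Spalax* and the 6 mouse libraries. They were miR-149-5p (0.95 and 0.96), miR-30b-5p (0.95 and 0.94), miR-664-3p (0.96 and 0.94), miR-378b (0.94 and 0.98) and miR-99a-3p (0.94 and 0.98). For miR-145a-5p they were miR-99a-3p (0.95 and 1.00), miR-1a-1-5p (0.94 and 0.95), miR-1a-3p (0.93 and 0.94), miR-133a-3p (0.95 and 0.93) and miR-149-5p (0.92 and 0.94). miR-149-5p and miR-99a-3p stood in both lists. The points share size factors and fall into 2 sides, so that any microRNA much lower at the IS gives a high coefficient.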

How the data were processed

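Small RNA was sequenced from 14 libraries (TruSeq Small RNA kit, one lane). Per the study's methods, adaptors were removed, mirDeep did the mapping and DESeq2 the comparison of sides. The build used for the mapping is not given in the sources used here, and the submitters' processing notes list GRCm38, TopHat 1.4.1, HTSeq and DESeq with no role. The deposited values are a signal per microRNA, namely reads over the size factor of a library, and are called normalized counts here. Whole reads were recovered for 100% of values (tolerance 0.01 reads). Size factors of the table of *Spalax* draw on libraries of both species, so each species was tested within its own table.

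limma 3.58.1 (R 4.3.3), with its variance trend on, was run on log2(value + 1). Names entered where 2 *Spalax* or 3 mouse libraries reached a value of 10, and the Benjamini-Hochberg threshold was 0.05. Fold changes are on that scale and understate those of rare microRNAs. One model took all 8 *Spalax* libraries and another the 6 of mice. Fits with the animal as a block left out the IS of mouse M1019 and the unnumbered UIS library. edgeR 4.0.16 and DESeq2 1.42.0 on the recovered reads were alternatives. Ratios and shares within a library were compared between the sides of an animal by exact sign-flip tests and between groups by exact permutation tests (SciPy 1.17.1), each two-sided. The scripts were tested on simulated data.

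Animal numbers in the labels pair the sides. The correlation of the deviations of both sides from their group means was 0.0933 in granulomas, 0.00405 in *Spalax* fibrosarcomas, and −0.107 and 0.122 for mice M1023 and M512. The named microRNAs are the members, lists of cell type markers and of vascular smooth muscle microRNAs, and the 5 most alike in pattern to each major arm. Members and lists were chosen with earlier results of these data known. The RNA-Seq libraries of the study are not analysed here.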

Additional observations from a re-analysis of the deposited data

Results flagged for a closer look

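miR-145b moved in opposite directions at the IS of the 4 *Spalax* and of the 2 paired mice when it was set against miR-145a-5p or against all reads of the same library. The IS library of mouse M1019, which has no paired UIS, lay within the range of the mouse UIS in both measures. From UIS to IS, with 0.5 reads added, the log2 proportion of miR-145b to miR-145a-5p changed by −4.35 in granulomas and by −2.86 in *Spalax* fibrosarcomas (2 animals each), and by 1.50 in the 2 paired mice. The log2 share of all reads on miR-145b changed by −4.18, −3.13 and 1.52 in the same order. Each of the 4 *Spalax* was lower at the IS in both measures and each of the 2 paired mice was higher, and the difference between the species was not tested. The counts behind these values are small, at most 61 reads per library, and the split of reads between Mir145a and Mir145b is uncertain. Skeletal muscle microRNAs held 3.95% and 2.57% of the reads at the IS of the paired mice M512 and M1023. They held 0.0101% at the IS of mouse M1019 and 0.00959% to 0.165% at the IS of *Spalax*. The part of these remaining muscle reads was not tested, and in the paired animals it cannot be told apart from that of species.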

How the results depend on the processing

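The scaling decided most of the calls. On total reads 1 member was called in granulomas, 1 in *Spalax* fibrosarcomas and 0 in mice, and on the reads outside skeletal muscle microRNAs 1, 2 and 0. In the same order, log2 changes on total reads were 0.10, −0.53 and −0.17 for miR-143-3p, 0.17, −0.27 and −0.31 for miR-145a-5p, 1.32, 0.73 and 0.32 for miR-143-5p and 1.13, 0.43 and 0.87 for miR-145a-3p, with 0.51 for miR-145b in mice. Outside skeletal muscle microRNAs they were −0.55, −1.17 and −0.62 for miR-143-3p, −0.48, −0.91 and −0.77 for miR-145a-5p, 0.90 and 0.18 in *Spalax* for miR-143-5p, and 0.51 in granulomas and 0.43 in mice for miR-145a-3p, with 0.15 for miR-145b in mice.

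The granuloma call of miR-145a-5p was lost with no filter, no trend in the spread or only the libraries compared (−1.67 each, adjusted p = 0.0551, 0.0575 and 0.0849 with limma). It was also lost with edgeR and TMM (−1.50, adjusted p = 0.0608), DESeq2 size factors (−1.48, 0.0631) or a replicate block (−1.66, 0.0630). Between granuloma and fibrosarcoma IS, miR-143-5p (0.01) turned to −0.024 on total reads, −0.017 outside skeletal muscle microRNAs, −0.033 with size factors without them, −0.048 and −0.20 with edgeR (TMM, DESeq2 size factors) and −0.24 with DESeq2. The cause was not tested. With the animal as a replicate block, 2 members were called in mice with limma and 2 with edgeR, from the libraries of mice M512 and M1023 only. In *Spalax* the block changed no call of a member with limma. Unpaired exact tests, which ignore that both sides came from the same animals, gave 0.15 for miR-143-3p to miR-145a-5p in mice. In *Spalax* they gave −1.41 for miR-143-3p to miR-143-5p and −0.85 for miR-145a-5p to miR-145a-3p (adjusted p = 0.0429 for both).

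With each library or animal left out in turn, values ranged from −2.18 to −1.31 for miR-143-3p in granulomas, from −2.44 (without the IS of animal Sp600) to −0.91 (without that of Sp976) for miR-145a-5p in granulomas and from −2.40 to −1.52 in *Spalax* fibrosarcomas, and from −0.63 to 0.11 for miR-143-5p in granulomas. miR-145a-3p ranged from −1.27 to −0.090 in granulomas, miR-143-5p from −1.49 to −0.21 in *Spalax* fibrosarcomas, and miR-145b from −2.20 to −1.10 in mice, where its call was kept only without the IS of animal M512. Members called ranged from 1 to 3 in granulomas, 2 to 3 in *Spalax* fibrosarcomas and 4 to 5 in mice. The log2 share of reads ranged from −0.29 to 0.018 for miR-143-3p and from −0.20 to 0.13 for miR-145a-5p. The granuloma less the fibrosarcoma change ranged from −0.046 to 1.23 for miR-143-5p, from −0.48 to 1.05 for miR-145a-5p and from −0.032 to 1.15 for miR-145a-3p. Between the IS of both diagnoses the ranges were −0.63 to 0.64 (miR-143-5p), −0.26 to 0.67 (miR-143-3p), −0.26 to 1.27 (miR-145a-5p) and −0.079 to 1.10 (miR-145a-3p), and between their UIS −0.24 to 0.14 (miR-145a-3p). Over all microRNAs, 17 were called for the difference of changes, against 61 with DESeq2, 43 on total reads, 5 with the replicate block and 0 with no filter or a pseudocount of 0.1, and 84 between the IS of both diagnoses, against 4 with only the libraries compared.

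With 2 *Spalax* per diagnosis and 6 pairs in all, a single ratio at the smallest p of 0.0312 does not pass the adjusted threshold. miR-143-5p and miR-145b rest on few reads, so their proportions carry wide counting error. All sides came from animals given 3MCA, so that the levels of untreated tissue are not known here. The diagnosis and the months after injection cannot be told apart in *Spalax*. In every comparison of *Spalax* with mice, the species cannot be told apart from dose, time after injection and origin of the animals.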
